A study of Drosophila melanogaster with 12 samples.

Results

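Rbp9 is 1 of the fly's ELAV/Hu family of RNA-binding proteins, which are found mainly in neurons. Each carries RNA recognition motifs that bind uridine-rich stretches of pre-mRNA and mRNA, and the family is known for altering splicing and for shifting the choice of poly(A) site towards longer 3′ UTRs in neural tissue. The comparison described here is of S2R+ cells that overexpressed wild-type Rbp9 after Effectene transfection (Rbp9WT) with S2R+ cells whose labelled treatment is none (untreated). S2R+ cells are a Drosophila melanogaster culture line that resembles hemocytes, the blood cells of the fly, and they were kept in Schneider medium. It uses 4 of the 12 libraries of the series, 2 per group, which were compared within replicate number, and all 8836 genes of the 13777 in the table whose mean over these 4 libraries was at least 1 CPM (reads of a gene scaled to a fixed library total). At the edge of that filter lay CG12814, just inside with a mean of 1.00013 CPM, and lncRNA:CR45412, just outside with 0.998873 CPM. Libraries of cells transfected with wild-type Elav (ElavWT) or Fne (FneWT), 2 of each, shared the fit, and 4 libraries of RNA recognition motif mutants were not analysed here. The labels give neither the promoter of the construct nor the share of cells that took it up. They also do not say if the untreated cells were mock transfected, so the construct and the transfection itself cannot be told apart. Nothing states that replicates 1 and 2 were separate cultures, so the p-values reflect how far these particular samples differ, and that may be a technical matter.

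Replicates 1 and 2 held 8761568 and 5020094 reads in Rbp9WT and 14391952 and 6808926 reads in untreated cells. A single read was worth 0.114 and 0.199 CPM in Rbp9WT and 0.0695 and 0.147 CPM in untreated cells. Genes named as rRNA took 4.75% and 15.4% of the reads in Rbp9WT and 2.91% and 20.1% in untreated cells. In a principal component analysis the first component, with 59.5% of the variance, separated the libraries by replicate number. Scores were 53.1 to 67.8 in replicate 1 of the transfected groups, -2.26 in untreated replicate 1 and -68.1 to -29.2 in replicate 2. Untreated replicate 1 stood apart from the other 7 libraries on the second component, which held 21.5% of the variance. Its score there was 71.0, and no other library scored above 14.8. The levels below are CPM rescaled by median ratios, and changes are differences of log2(rescaled CPM + 1), Rbp9WT minus untreated, with a standard error (SE) from limma. That scale understates the change of little-expressed genes. Without rescaling, the median gene itself lay 0.39 log2 units higher in Rbp9WT (0.48 in replicate 1, 0.31 in replicate 2), against 0.00 after it. Since the table gives 1 value per gene, shifts between a gene's poly(A) sites cannot be read from it.

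Rbp9 itself was read first, as a check of the label. The gene (Rbp9, FBgn0010263) lies on the plus strand of chromosome 2L at 2954762 to 2968434. Its level was 538 and 59.6 rescaled CPM in Rbp9WT, against 3.50 and 3.11 in untreated cells. The change of Rbp9 was 5.39 ± 0.64 (SE, n = 2 against 2; limma adjusted p = 0.00136), or 6.91 in replicate 1 and 3.88 in replicate 2. The reads behind these values were 6244 and 295 in Rbp9WT and 48 and 16 in untreated cells. Both Rbp9WT libraries thus carried the transcript, replicate 1 at a much higher level than replicate 2. fne measured 86.7 and 2.83 in Rbp9WT, against 7.0 and 2.53 in untreated cells, and its difference of 1.79 ± 1.21 (adjusted p = 0.389) rests on Rbp9WT replicate 1. elav measured 25.2 and 33.1 in Rbp9WT, against 26.2 and 49.4 in untreated cells (change -0.31 ± 0.28, adjusted p = 0.46). The direction of elav turned to 0.11 without rescaling. Ts, the thymidylate synthase gene whose 3′ end lies within the annotated span of Rbp9 on the other strand, measured 20.8 and 18.2 in Rbp9WT against 62.7 and 27.0 in untreated cells.

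Of the markers of cell identity, the hemocyte genes srp, a GATA factor, and Pxn, a secreted peroxidase, were expressed in all 4 libraries. srp measured 62.4 and 43.0 in Rbp9WT against 77.2 and 71.2 in untreated cells, and Pxn 150.3 and 109 against 189.5 and 119. Neither passed the test (adjusted p = 0.203 and 0.63, limma). Hml, which marks mature plasmatocytes, had only 46 and 18 reads in Rbp9WT and 6 and 13 in untreated cells, and the phagocytic receptor gene NimC1 had at most 1 read per library. The muscle actin gene Act88F and the fat body gene Fbp1 had 0 reads in all 4 libraries, and the fat body gene Lsp2 at most 1 read.

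Gene expression differed widely between Rbp9WT and untreated cells. With the replicate number in the fit, limma called 1385 of 8836 genes at an adjusted p under 0.05 (15.7% of those tested), 947 higher in Rbp9WT (10.7%) and 438 lower (4.96%). The genes called higher were mostly little expressed, with a median level of 14.1 rescaled CPM in Rbp9WT and 3.11 in untreated cells. Those called lower were abundant, with median levels of 40.6 in Rbp9WT and 91.0 in untreated cells, beside 22.2 and 22.6 over all genes tested. Of the genes called higher, 262 (27.7%) were under 1 rescaled CPM in both untreated libraries. Such genes entered the test only through Rbp9WT, so they had to differ. The median change was 1.54 in the genes called higher, or 1.51 with the 55 of them that had no read in either untreated library set to a floor of 3 reads per library. It was -1.10 in those called lower. In 832 and 357 of the higher and lower genes the 2 Rbp9WT libraries did not overlap the 2 untreated ones. These genes were called for differing between the same libraries, so that separation is no further support. The same holds where single genes are said below not to overlap. The share without overlap over all tested genes is not given here.

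The calls rest on the pairing by replicate number and on single libraries. Without the replicate block limma called 0 genes, with 744 at an unadjusted p under 0.05 and a smallest adjusted p of 0.119. Without rescaling, 1585 genes were higher and 66 lower (96.0% of calls higher, against 68.4%), and 1013 genes were called with the same sign on both scales. With untreated replicate 1 left out 382 genes were called, and with untreated replicate 2 left out 3077. Leaving out Rbp9WT replicate 1 gave 379 calls and leaving out Rbp9WT replicate 2 gave 501. A core of 228 of the 1385 calls held whichever of these 4 libraries was left out, 218 higher and 10 lower, and all 228 were also called without rescaling, by edgeR and by DESeq2. That core was picked out after the data had been seen. It includes genes under 1 rescaled CPM in both untreated libraries, such as CG18568, GstD4, NLaz, Cht9 and Tm2, which had to be higher. How many of the core are of this kind was not counted. The refits reuse the libraries of the main fit, so a call that held, here or below, is no separate support.

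The 2 replicates moved together over the genes but not by the same amount. Across the 8836 genes, which are not independent replicates, the changes in replicate 1 and replicate 2 had a Pearson r of 0.639 and a Spearman rho of 0.625. A change of more than 1 log2 unit was seen upwards in both replicates for 711 genes, downwards in both for 82, and in opposite directions for 28. Replicate 1 had the larger change in 729 of the 947 higher and 393 of the 438 lower genes. The median change of the higher genes was 1.80 in replicate 1 and 1.34 in replicate 2, and that of the lower genes -1.43 and -0.77. Replicate 1 was also the one with more Rbp9 reads, and it holds the untreated library that stands apart. The part of either in the larger changes was not tested.

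**Figure D1:**
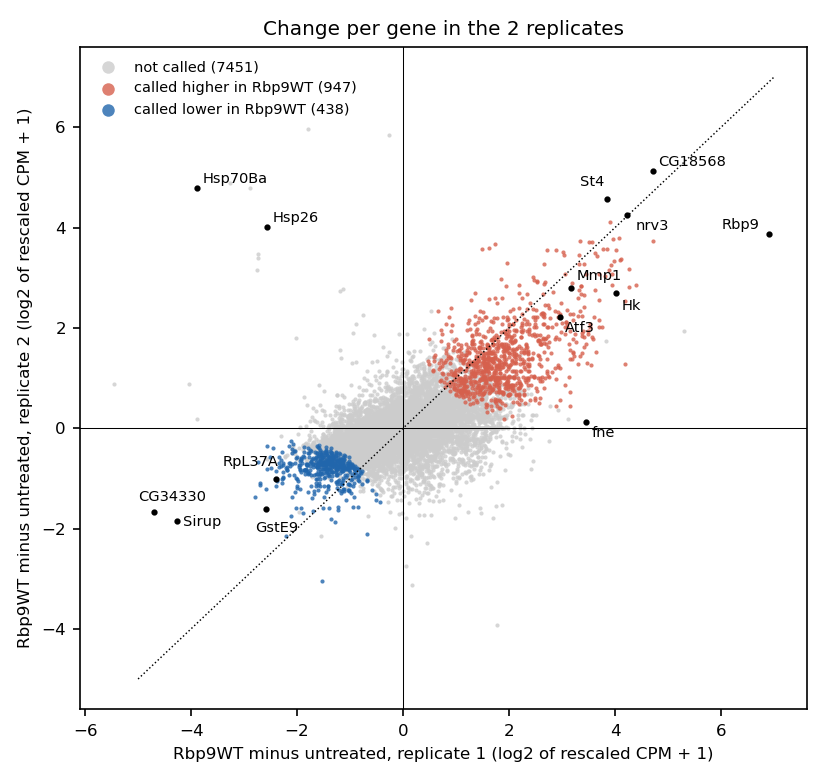
Each point is 1 of the 8836 tested genes, placed by its change (Rbp9WT minus untreated, log2 of rescaled CPM + 1) in replicate 1 on the x axis and in replicate 2 on the y axis, with 947 genes called higher in red, 438 called lower in blue and the diagonal dotted. Rbp9 lies at 6.91 and 3.88, the strongest of the other rises lie near the diagonal, and the heat shock genes Hsp70Ba and Hsp26 lie in the opposite corner, below 0 in replicate 1 and above 0 in replicate 2.

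After Rbp9, the steepest rises were those of CG18568, nrv3, CG2278, St4, kmg, GstD4 and CG7694, all from untreated levels of at most 6.92 rescaled CPM. CG18568 and St4 are neighbours on the minus strand of chromosome 2R (13971325 to 13972834 and 13969910 to 13971263). CG18568 measured 40.5 and 33.9 in Rbp9WT against 0.583 and 0 in untreated cells, a change of 4.92 ± 0.31 (adjusted p = 6.48e-08, limma). St4, a sulfotransferase gene, measured 41.6 and 41.2 against 1.97 and 0.778 (4.21 ± 0.31, adjusted p = 5.23e-07). In both the replicates agreed closely, with every Rbp9WT library far above every untreated one.

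nrv3 (FBgn0032946, chromosome 2L, 21380000 to 21393319, plus strand) encodes a beta subunit of the sodium-potassium pump that is typical of the nervous system. It measured 148 and 92.1 in Rbp9WT against 6.92 and 3.89 in untreated cells, and its changes in replicates 1 and 2 were almost equal, at 4.23 and 4.25 (4.24 ± 0.26 together, adjusted p = 6.48e-08, limma). CG2278 measured 154 and 69.1 against 4.88 and 4.28 (4.22 ± 0.32), and overlaps slpr. kmg (FBgn0032473, chromosome 2L, 13160527 to 13163153, plus strand), a zinc-finger gene known for keeping somatic genes silent in the male germ line, measured 31.3 and 26.5 against 1.17 and 0.584 (4.01 ± 0.32). GstD4, a glutathione S-transferase gene, measured 18.2 and 15.6 against 0.146 and 0.195 (3.93 ± 0.40), where the untreated values stand for 2 reads and 1 read. CG7694 measured 53.1 and 28.7 against 2.48 and 1.17 (3.87 ± 0.34), and overlaps fray. All of these calls held with any 1 of the 4 libraries left out. CG18568 and GstD4, under 1 rescaled CPM in both untreated libraries, entered the test only through Rbp9WT and had to be higher. No source used here states if counting used strand, so reads of overlapping genes may not be separable.

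Among genes with a mean of at least 50 rescaled CPM, Hk, Atf3 and CG15765 rose most after those already named. Hk (FBgn0263220, chromosome X, 10233347 to 10263485, minus strand), the beta subunit of the Shaker potassium channel, measured 288 and 292 in Rbp9WT against 16.8 and 44.0 in untreated cells (3.36 ± 0.33, adjusted p = 9.62e-06, limma). The 2 Rbp9WT libraries were nearly equal in Hk while the untreated ones differed. Atf3 (FBgn0028550, chromosome X, 1242740 to 1275284, minus strand), a bZIP transcription factor of stress and metabolic responses, measured 327 and 158 against 41.2 and 33.1 (2.59 ± 0.30, adjusted p = 3.15e-05). CG15765 measured 858 and 138 against 109.6 and 28.8 (2.59 ± 0.32), so that each Rbp9WT library exceeded both untreated ones while the replicates themselves lay far apart.

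The steepest falls were smaller and less even between replicates. CG34330 measured 1.98 and 5.86 in Rbp9WT against 76.1 and 20.8 in untreated cells, a change of -3.18 ± 0.78 (adjusted p = 0.0327, limma) that did not pass without untreated replicate 1 (adjusted p = 0.0904). edgeR did not call it either. Sirup (FBgn0031971, chromosome 2L, 7998869 to 7999676, plus strand), an assembly factor of succinate dehydrogenase, measured 66.2 and 65.3 against 1292 and 237 (-3.05 ± 0.57, adjusted p = 0.0127). The Rbp9WT libraries agreed in Sirup and the untreated ones did not, and the call held with any 1 library left out. GstE9 measured 14.7 and 15.6 against 94.1 and 49.6 (-2.10 ± 0.29), and overlaps imd. The unprocessed ribosomal RNA pre-rRNA:CR45856 measured 20.2 and 42.4 against 60.0 and 357 (-2.28 ± 0.34). It overlaps other rRNA genes and belongs to a repeated locus, so its level is uncertain.

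CG16888, CG10512 and CG3770 were also among the 8 largest falls, at -2.18, -2.09 and -1.92, but lost their calls when 1 library was left out. CG16888 did so without Rbp9WT replicate 1 (adjusted p = 0.0826, limma), and CG10512 and CG3770 without untreated replicate 1 (adjusted p = 0.0947 and 0.0937). Glt, which encodes the basement membrane glycoprotein glutactin, fell to 47.2 and 45.9 in Rbp9WT, against 206 and 157 in untreated cells (-1.93 ± 0.30, adjusted p = 0.000577). JhI-21, an amino acid transporter gene, measured 45.3 and 63.4 against 276 and 148 (-1.89 ± 0.32). bnl, the FGF ligand gene that guides tracheal branching, measured 17.3 and 43.4 against 73.6 and 132 (-1.80 ± 0.26). These 3 genes held with any 1 library left out. So did Ldh, the lactate dehydrogenase gene, at 35.4 and 22.2 against 134 and 73.6 (-1.78 ± 0.28), fat-spondin, a secreted matrix gene, at 25.4 and 35.2 against 99.8 and 107, GNBP3, a glucan recognition gene of the Toll pathway, at 22.4 and 23.6 against 65.7 and 72.8, and cue at 15.8 and 45.3 against 39.6 and 168. With Sirup, GstE9 and pre-rRNA:CR45856 they make up the 10 lower genes of the core.

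**Figure D2:**
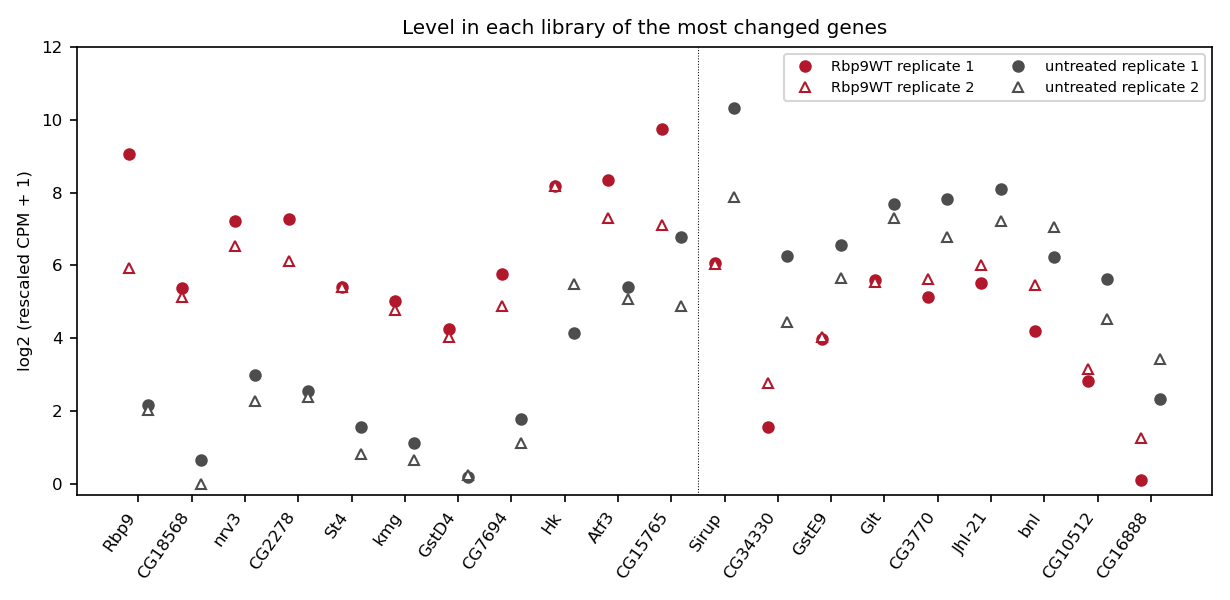
Levels of the 20 named genes with large changes on a log2 scale of rescaled CPM + 1, with Rbp9WT in red to the left and untreated cells in grey to the right of each gene, circles for replicate 1 and triangles for replicate 2, rises left and falls right of the dotted line. In every gene both Rbp9WT points lie on the same side of both untreated points, which the rule that picked the genes required. In Sirup and CG34330 the untreated points lie far apart, at 1292 and 237 and at 76.1 and 20.8 rescaled CPM.

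Many of the genes that mark neurons were higher in Rbp9WT. Of 35 tested neuron markers (of 37 listed), 14 rose and 1 fell, and the median change of the list was 0.92 (1.55 in replicate 1, 0.62 in replicate 2), beside 10.7% higher, 4.96% lower and a median of 0.00 over all genes. nrv3 led, as given above. Nrx-1 (FBgn0038975, chromosome 3R, 22468512 to 22486969, plus strand), a presynaptic adhesion gene, measured 78.7 and 16.8 in Rbp9WT against 6.49 and 2.34 in untreated cells (2.91 ± 0.35, adjusted p = 4.66e-05, limma). Nrg, an axonal cell adhesion gene of the L1 family, measured 94.7 and 39.4 against 20.7 and 9.34 (2.05 ± 0.26). Syn, which encodes the synaptic vesicle protein synapsin, measured 29.5 and 4.24 against 3.50 and 0.584 (2.24 ± 0.45), and did not pass without untreated replicate 1 (adjusted p = 0.0820). In Nrx-1, Nrg and Syn both groups were higher in replicate 1 than in replicate 2, and the groups did not overlap.

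Not all neuron markers moved this way: 20 of the 35 were not called. nSyb, the neuronal synaptobrevin gene, measured 9.23 and 3.23 in Rbp9WT against 36.4 and 1.75 in untreated cells (adjusted p = 0.397, limma), and the active zone gene brp 16.4 and 0.606 against 3.86 and 1.36 (adjusted p = 0.382). The groups overlap in both. The calcium sensor gene of vesicle release Syt1 measured 21.6 and 3.64 against 5.69 and 3.89 (adjusted p = 0.18). Nlg1, a neuroligin gene, was the marker that fell, to 51.3 and 75.8 in Rbp9WT against 188 and 135 in untreated cells (-1.34 ± 0.33, adjusted p = 0.0135). Its call was lost without rescaling, without untreated replicate 1 and without Rbp9WT replicate 1. Summed over the tested neuron markers, the levels were 2258 and 1695 in Rbp9WT and 1469 and 1683 in untreated cells, so the groups were much closer in the sum than in single genes. In bulk cells, a change in the share of cells that express a gene cannot be told apart from a change per cell. Of the 14 rises, 5 remained without untreated replicate 1, 6 without Rbp9WT replicate 1, 8 without Rbp9WT replicate 2 and 14 without untreated replicate 2, and all 14 were called without rescaling.

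Voltage-gated ion channel genes showed the same direction. All 19 tested channel genes had a change above 0, with a median of 0.93 (1.5 in replicate 1, 0.40 in replicate 2), and 6 were called higher (31.6%). Over all tested genes 10.7% were called higher and 4423 of 8836 had a change above 0. Shal, Sh and cac, potassium and calcium channel genes, stand in this list and among the neuron markers. Ca-alpha1D, an L-type calcium channel gene, measured 23.3 and 3.84 in Rbp9WT against 2.62 and 0.584 in untreated cells (2.18 ± 0.36, adjusted p = 0.000906, limma), and its call held with any 1 library left out. Elk, a potassium channel gene, measured 11.3 and 12.9 against 3.35 and 2.14 (1.82 ± 0.35). It did not pass without Rbp9WT replicate 2 (adjusted p = 0.0764). NaCP60E, a sodium channel gene, measured 10.1 and 5.46 against 1.53 and 1.36 (1.79 ± 0.40). It did not pass without untreated replicate 1 or Rbp9WT replicate 1 (adjusted p up to 0.130). Elk and NaCP60E overlap several other genes. The 6 calls became 2 without untreated replicate 1, Rbp9WT replicate 1 or Rbp9WT replicate 2.

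Of 16 tested neural transcription factors, 3 rose (18.8%, beside 10.7% of all genes) and none fell, with a median change of 0.88. onecut, a homeodomain factor of neurons, measured 7.76 and 1.82 in Rbp9WT against 0.437 and 0.195 in untreated cells (1.92 ± 0.46, adjusted p = 0.0112, limma). grh, the grainyhead gene of neuroblasts and epithelia, measured 48.8 and 9.09 against 14.6 and 3.89 (1.36 ± 0.32). The Pax6 gene toy measured 9.48 and 1.82 against 3.06 and 0.195 (1.30 ± 0.40). In grh and toy replicate 2 of Rbp9WT lay below replicate 1 of untreated cells, so the groups overlap and the difference shows within replicates. No call of the 3 held without untreated replicate 1 or without Rbp9WT replicate 1 (adjusted p up to 0.198, 0.170 and 0.325 for onecut, grh and toy), and 1 held without Rbp9WT replicate 2. Only 16 of the 29 listed genes in the table passed the filter on low values. onecut was under 1 rescaled CPM in both untreated libraries, so it entered the test only through Rbp9WT and had to be higher. The share and median of the list are thus set in part by the filter. With the filter raised to 5 CPM, 7 of the list were tested, 1 rose and the median was 0.76. A pseudocount of 5 gave 2 rises and a median of 0.41.

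Known targets of ELAV proteins and genes with long neural 3′ UTRs were called higher at a share near that of all genes. Of 40 such genes, 5 rose (12.5%, beside 10.7% of all genes) and none fell. The median change was 0.54, made up of 1.14 in replicate 1 and -0.01 in replicate 2. bol (FBgn0011206, chromosome 3L, 9097629 to 9134405, minus strand), a DAZ-family RNA-binding protein gene, measured 94.4 and 61.4 in Rbp9WT against 19.0 and 14.0 in untreated cells (2.15 ± 0.28, adjusted p = 9.3e-05, limma). mei-P26, a TRIM-NHL gene, measured 454 and 350.4 against 97.1 and 134 (1.80 ± 0.31). bol, mei-P26 and Nrg held with any 1 library left out and did not overlap between the groups. Rbp6, a Musashi-type RNA-binding protein gene, measured 56.7 and 5.46 against 15.4 and 1.56 (1.58 ± 0.38), and the kinesin gene Khc-73 38.5 and 20.8 against 16.5 and 13 (0.90 ± 0.27). Without rescaling, where 1585 of all 8836 genes were called higher, 14 of the 40 passed. The count was 3 without untreated replicate 1, 23 higher and 1 lower without untreated replicate 2, and 4 without either Rbp9WT library.

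The change differed with the annotated length of the 3′ UTR. Among genes whose longest annotated 3′ UTR is over 2000 nt (743 tested), 19.8% were called higher and 0.942% lower, with a median change of 0.48. Among those with at most 100 nt (1497 tested), 8.28% were called higher and 6.88% lower, with a median of -0.17. The 4 classes between these 2 lay in order in the share called lower, which fell with each step in length, and the share called higher grew with each step. The median longest UTR was 525 nt in the genes called higher, 239.5 nt in those called lower and 333 nt in all tested genes. The difference was mainly one of replicate 1. There the median change of the longest class was 0.92 and that of the shortest -0.24, while in replicate 2 they were 0.13 and -0.11. Without untreated replicate 1 the median of the longest class became 0.13 and that of the shortest -0.10, and without Rbp9WT replicate 1 they became 0.32 and -0.14. Without rescaling the median was 0.85 in the longest class and 0.22 in the shortest, beside 0.39 over all genes. The longest class thus stayed above the shortest. The shortest no longer lay below 0, though it lay below that median of all genes. The length classes were chosen after the data had been seen.

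The median level was 38.5 rescaled CPM in the longest class and 19.2 in the shortest, and the classes were therefore also read within 3 equal classes of the mean level. In the low class 25.5% of the genes with over 2000 nt and 17.4% of those with at most 100 nt were called higher. In the middle class the shares were 23% and 4.55%, and in the high class 14.5% and 1.57%. The genes with over 2000 nt were called lower in 0%, 1.09% and 1.45% of cases in the low, middle and high class, and those with at most 100 nt in 0.575%, 6.73% and 15.7%. In replicate 2 the high-level genes of the long class had a median of -0.13, below 0, and those of the short class -0.27. Set against ElavWT, the longest class had a median of 0.04 in Rbp9WT and the shortest -0.13, and set against FneWT -0.16 and 0.02.

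**Figure D3:**
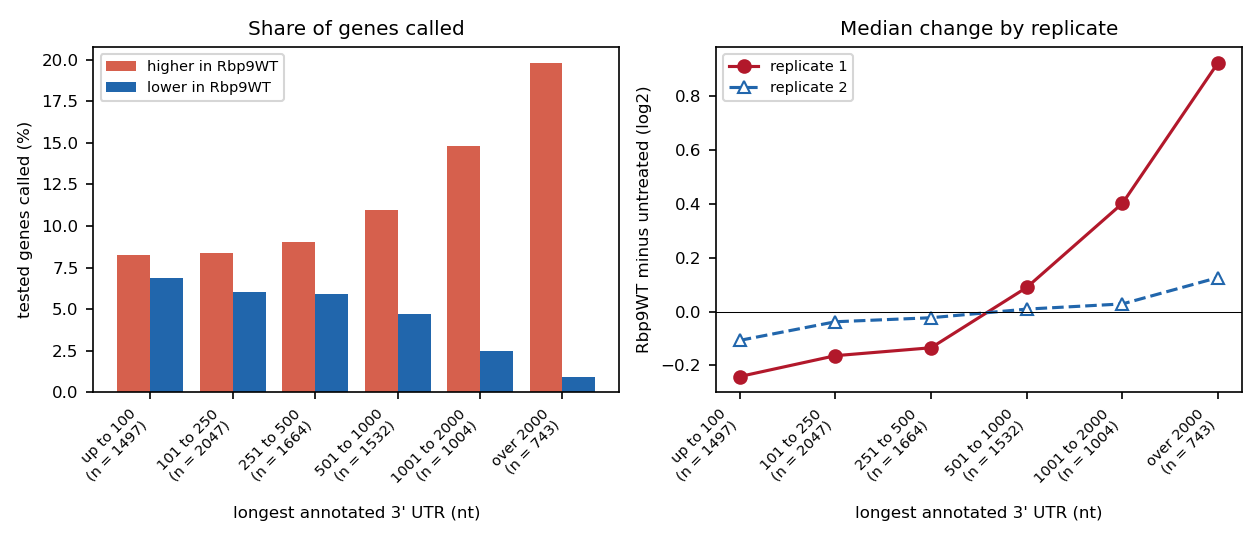
Left, the share of tested genes called higher (red) or lower (blue) in Rbp9WT in 6 classes of the longest annotated 3′ UTR. Right, the median change (Rbp9WT minus untreated, log2 of rescaled CPM + 1) of the same classes in replicate 1 (circles) and replicate 2 (triangles). The share called higher grows from the shortest to the longest class, 8.28% to 19.8%, and the median change spreads from -0.24 to 0.92 in replicate 1 but from -0.11 to 0.13 in replicate 2.

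Cytosolic ribosomal protein genes lay below untreated cells almost as a whole. Of 86 tested, 36 were called lower (41.9%, beside 4.96% of all genes) and none higher, 85 had a change below 0 (beside 4413 of all 8836) and the median change was -1.23 (-1.83 in replicate 1, -0.60 in replicate 2). RpL37A (FBgn0261608, chromosome 2L, 5070957 to 5072055, plus strand) measured 298 and 776 in Rbp9WT against 1582 and 1567 in untreated cells (-1.71 ± 0.42, adjusted p = 0.0126, limma). RpS30 measured 275 and 833 against 1332 and 1645 (-1.63 ± 0.39). The untreated libraries were close to each other in both genes while Rbp9WT replicate 1 lay well below replicate 2. Summed over the list, the levels were 67340 and 219396 in Rbp9WT and 246430 and 325508 in untreated cells. The calls depended on single libraries: of the 36, 1 remained without untreated replicate 1, 0 without Rbp9WT replicate 1 and 4 without Rbp9WT replicate 2. Without untreated replicate 2, 81 genes were called. RpL37A and RpS30 did not pass without untreated replicate 1 or Rbp9WT replicate 1 (adjusted p up to 0.121 and 0.171). Without rescaling, 11 genes were called lower and the median was -0.80, beside 0.39 over all genes. Counts of ribosomal protein genes can be split with their pseudogenes or paralogs.

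Other parts of the translation machinery were lower to a smaller degree. Of 47 translation factors, 7 fell (14.9%, beside 4.96% of all genes) and 1 rose (median -0.57, or -0.16 without rescaling). eIF4A, the RNA helicase of the cap-binding complex, measured 1029 and 1567 in Rbp9WT against 3612 and 2599.7 in untreated cells (-1.27 ± 0.41, adjusted p = 0.0465, limma), and eIF5 rose to 73.7 and 29.3 against 36.1 and 13.6 (1.03 ± 0.29). Of 32 aminoacyl-tRNA synthetases, 8 fell (25%), led by AsnRS at 26.1 and 51.1 against 103 and 92.2 (-1.39 ± 0.30), and the mitochondrial CysRS-m rose. Their median was -0.39, and 0.02 without rescaling, where the median of all genes was 0.39. Of 8 subunits of the cytosolic chaperonin 2 fell, with all 8 below 0 (median -0.83, or -0.40 without rescaling). None of the 7 translation factor falls and none of the chaperonin falls remained without untreated replicate 1 or without either Rbp9WT library or without rescaling. The rises of eIF5 and CysRS-m held without rescaling but not without untreated replicate 1 or either Rbp9WT library. Of the 8 synthetase falls 1, 0 and 3 remained without untreated replicate 1, Rbp9WT replicate 1 and Rbp9WT replicate 2, and 1 without rescaling.

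Mitochondrial and proteasome genes shifted down as lists with few calls. Of 65 oxidative phosphorylation genes, 7 fell (10.8%, beside 4.96% of all genes) and none rose, with 60 below 0 and a median of -0.54. UQCR-C1, a core subunit of complex III, measured 133 and 238 in Rbp9WT against 316 and 504 in untreated cells (-1.16 ± 0.34, adjusted p = 0.0306, limma). Of 71 mitochondrial ribosomal proteins 3 fell (4.23%, beside 4.96% of all genes; median -0.48), and of 35 proteasome genes 1 fell (median -0.51). None of these 11 calls remained without untreated replicate 1, without either Rbp9WT library or without rescaling, where the medians were -0.13, -0.08 and -0.08. The median of all genes without rescaling was 0.39. Among 18 genes of the vacuolar proton pump (median -0.52, or -0.10 without rescaling) 1 was called, the alternative catalytic subunit Vha68-1, and it rose to 17.5 and 19.4 in Rbp9WT against 5.47 and 6.23 in untreated cells (1.51 ± 0.30), a call that held with any 1 library left out.

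Genes of mitosis were lower. Of 32 tested, 9 fell and none rose (28.1% lower, beside 4.96% of all genes), with 27 below 0 and a median of -0.55 that was -0.49 in replicate 1, -0.50 in replicate 2 and -0.13 without rescaling. Over all genes the median without rescaling was 0.39. aurB, the Aurora B kinase gene, measured 22.4 and 47.3 in Rbp9WT against 93.1 and 107 in untreated cells (-1.58 ± 0.30, adjusted p = 0.00253, limma). feo, which bundles the microtubules of the spindle midzone, measured 19.5 and 52.3 against 70.3 and 128 (-1.54 ± 0.31). The kinesin-5 motor gene Klp61F measured 14.7 and 28.3 against 47.9 and 64.4 (-1.40 ± 0.28). In all 3 the groups did not overlap. ncd, Incenp, fzy, polo, aurA and pav fell by smaller amounts. None of the 9 remained without untreated replicate 1, where aurB, feo and Klp61F had adjusted p = 0.0577, 0.0922 and 0.0679. The number that remained was 3 without Rbp9WT replicate 1, 4 without Rbp9WT replicate 2 and 3 without rescaling. Of 32 DNA replication genes, 5 fell (15.6%; median -0.51, or -0.14 without rescaling), among them PCNA at 85.2 and 92.1 in Rbp9WT against 189.6 and 168 in untreated cells (adjusted p = 0.0184), and PCNA2 rose to 13.6 and 5.66 against 3.64 and 0.973. None of the 5 falls remained without untreated replicate 1, without either Rbp9WT library or without rescaling.

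**Figure D4:**
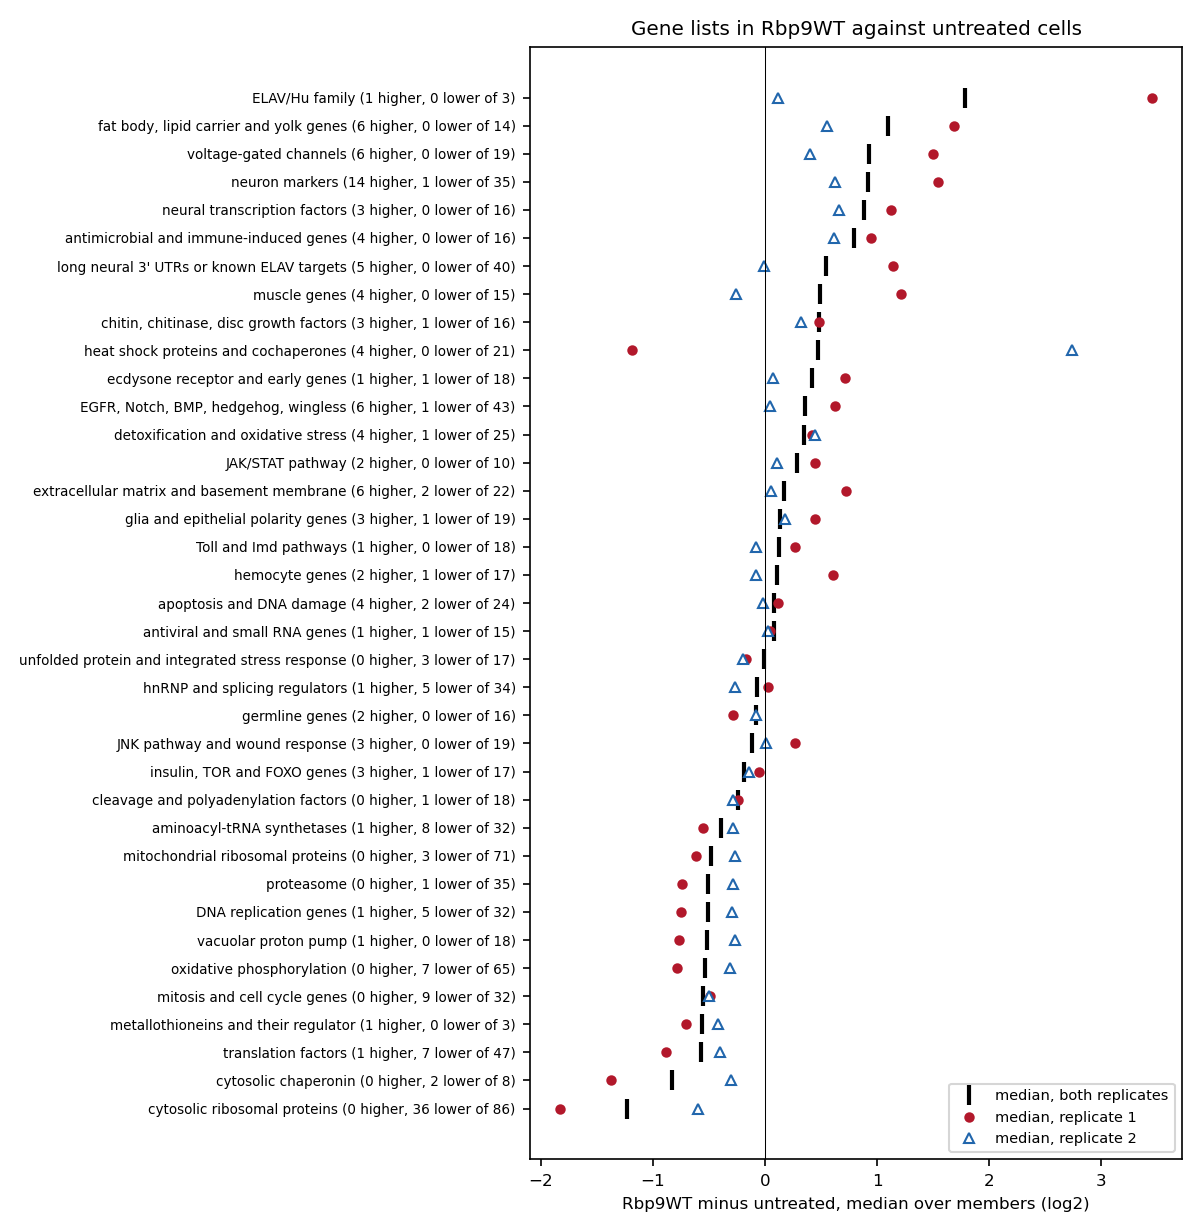
Median change of the tested members of each gene list (Rbp9WT minus untreated, log2 of rescaled CPM + 1), with black ticks for both replicates together, circles for replicate 1 and triangles for replicate 2, and the numbers called higher and lower beside each name. Neuron, channel and fat body lists lie near 1, and cytosolic ribosomal proteins lie lowest at -1.23. Lists such as those of fat body, muscle, chitin and neural transcription factor genes include genes that entered the test only through Rbp9WT and so had to be higher. The replicates of the heat shock list lie far apart on opposite sides of 0, at -1.18 and 2.74.

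Lists of markers of other cell types also held genes that rose. Of 15 tested muscle genes 4 rose (26.7%, beside 10.7% of all genes) and none fell (median 0.49, with 1.22 in replicate 1 and -0.26 in replicate 2). Mef2, the myogenic transcription factor gene, measured 141 and 76.0 in Rbp9WT against 12.9 and 27.2 in untreated cells (2.40 ± 0.39, adjusted p = 0.00129, limma). Tm2, a tropomyosin gene, measured 12.8 and 3.43 against 0.0729 and 0 (2.92 ± 0.46), where the untreated values stand for 1 read and none. Both held with any 1 library left out. The muscle myosin light chain gene Mlc2 measured 10.7 and 3.03 against 1.53 and 1.17 (1.55 ± 0.44) and did not (adjusted p up to 0.363, lost without untreated replicate 1 or either Rbp9WT library). Mhc, the muscle myosin heavy chain gene, had 37 and 2 reads in Rbp9WT and 11 and 0 in untreated cells. The muscle list summed to 704 and 649 in Rbp9WT and to 471 and 1075 in untreated cells. Tm2 entered the test only through Rbp9WT and had to be higher, so the share of the list is set in part by the filter. With the filter raised to 5 CPM, 10 of the list were tested, 3 rose and the median was 0.35. A pseudocount of 5 gave 3 rises and a median of 0.30.

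Of 14 tested fat body, lipid carrier and yolk genes 6 rose (42.9%, beside 10.7% of all genes) and none fell, with a median of 1.10 (1.69 in replicate 1, 0.55 in replicate 2), though 7 more listed genes did not pass the filter on low values. NLaz, a secreted lipocalin gene, measured 11.6 and 7.48 in Rbp9WT against 0.146 and 0 in untreated cells (3.27 ± 0.36, adjusted p = 1.99e-05, limma), and Adh, the alcohol dehydrogenase gene, 19.1 and 16.2 against 0.802 and 3.70 (2.68 ± 0.41). Both held with any 1 library left out, and no other member of the 6 did. Akh, the adipokinetic hormone gene, measured 12.4 and 3.23 against 0.146 and 0.778 (2.40 ± 0.50), and did not pass without untreated replicate 1 or Rbp9WT replicate 1 (adjusted p up to 0.100). Lsp1beta, a larval serum protein gene, had 33 and 8 reads in Rbp9WT and none in untreated cells. NLaz, Akh and Lsp1beta were under 1 rescaled CPM in both untreated libraries. They entered the test only through Rbp9WT and had to be higher, so the share and median of the list are set in part by the filter. With the filter raised to 5 CPM, 9 of the list were tested, 4 rose and the median was 0.38. A pseudocount of 5 gave 4 rises and a median of 0.50. The list summed to 370 and 415 in Rbp9WT and to 349 and 476 in untreated cells. Of the 6 rises, 2 remained without untreated replicate 1, 3 without Rbp9WT replicate 1 and 4 without Rbp9WT replicate 2.

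Of 16 tested germline genes 2 rose, a share (12.5%) near the 10.7% of all genes, and none fell. osk (FBgn0003015, chromosome 3R, 8935126 to 8938395, plus strand), which directs germ plasm assembly in oocytes, measured 44.0 and 23.4 in Rbp9WT against 1.97 and 1.56 in untreated cells (3.59 ± 0.31, adjusted p = 1.77e-06, limma) and held with any 1 library left out. spn-E, a piRNA pathway helicase gene, measured 19.6 and 11.9 against 8.89 and 4.87 (1.10 ± 0.33) and did not pass without any 1 of the 4 (adjusted p up to 0.324). The median of the list was -0.08, and 0.33 without rescaling, where the median of all genes was 0.39. The germ cell marker vas had 4 reads in Rbp9WT replicate 1 and 0 in the other 3 libraries. Among 19 glia and epithelial polarity genes 3 rose (15.8%) and 1 fell (5.26%). There crb (1.67), sdt (1.31) and Nrx-IV (1.16) rose and Patj fell (-0.79, a call lost without rescaling). None of the 3 rises remained without untreated replicate 1 or without Rbp9WT replicate 1, where the adjusted p of crb, sdt and Nrx-IV reached 0.349, 0.126 and 0.366. The glial factor gene repo had 8 and 0 reads in Rbp9WT and 6 and 0 in untreated cells. Of 17 hemocyte genes vkg (1.23) and drpr (0.96) rose and Pvr (-0.86) fell, shares (11.8% and 5.88%) near those of all genes. None of these 3 held without untreated replicate 1 or either Rbp9WT library (adjusted p up to 0.209, 0.240 and 0.300), and Pvr was not called without rescaling.

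Most heat shock genes differed between the groups in opposite directions in the 2 replicates. Of 21 tested, 14 lay below untreated cells in replicate 1 and above them in replicate 2, and the median change was -1.18 in replicate 1 and 2.74 in replicate 2. Hsp70Ba measured 13.3 and 264 in Rbp9WT against 209 and 8.56 in untreated cells. Hsp26 measured 37.8 and 289 against 227 and 16.9, and Hsp22 2.33 and 166 against 23.6 and 5.06. High levels thus stood in Rbp9WT replicate 2 and untreated replicate 1, and low levels in the other two libraries. ElavWT and FneWT shared the pattern of Rbp9WT in Hsp22, with 10.8 and 113 in ElavWT replicates 1 and 2 and 2.62 and 204 in FneWT. None of the Hsp70 genes, Hsp22, Hsp23, Hsp26, Hsp27, Hsp68 or Hsp83 passed (limma adjusted p of 0.426 to 0.956). Without untreated replicate 1 the test called 12 of the list higher and none lower, and without untreated replicate 2 it called 4 higher and 9 lower. The median of the list, 0.48 here, was -0.59 with edgeR and -0.55 with DESeq2. The Hsp70 genes are near-identical copies, between which reads may be split.

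Against that pattern, Hsp67Bc and stv were higher in Rbp9WT in both replicates. Hsp67Bc, a small heat shock protein gene of selective autophagy, measured 12.3 and 12.9 in Rbp9WT against 1.02 and 0.195 in untreated cells (3.13 ± 0.38, adjusted p = 5.84e-05, limma). stv, the BAG-family co-chaperone gene, measured 7.50 and 22.8 against 1.75 and 0.973 (2.61 ± 0.41, adjusted p = 0.000669). Both held with any 1 library left out. Hsp67Ba (1.64 ± 0.43) and the heat shock factor gene Hsf (1.00 ± 0.29) rose as well. Hsf did not pass without untreated replicate 1 or either Rbp9WT library, and Hsp67Ba did not pass without untreated replicate 1 or Rbp9WT replicate 1 (adjusted p up to 0.381).

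**Figure D5:**
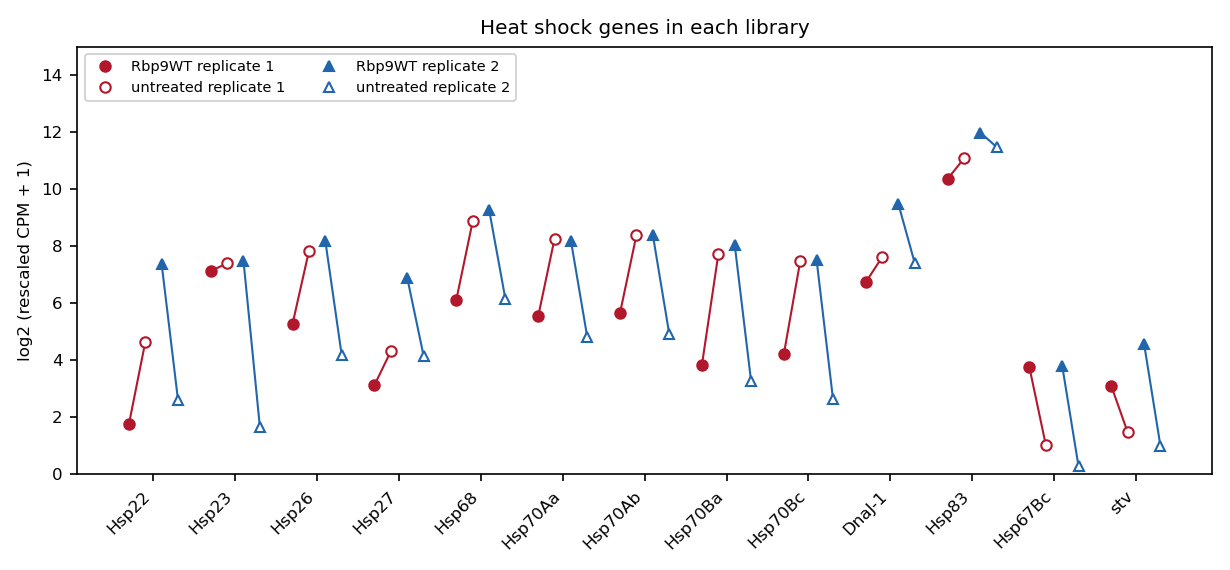
Levels of 13 heat shock genes in each library on a log2 scale of rescaled CPM + 1, with filled symbols for Rbp9WT left of open symbols for untreated cells, circles for replicate 1 and triangles for replicate 2, and lines joining same-numbered libraries. The lines slope in opposite directions in the 2 replicates from Hsp22 to Hsp83, and downwards from Rbp9WT to untreated cells in both replicates only in Hsp67Bc and stv.

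Other stress lists held single calls in both directions. Of 17 genes of the unfolded protein and integrated stress response, 3 fell (17.6%, beside 4.96% of all genes) and none rose. They were the ATF4 gene crc, at 90.7 and 81.2 in Rbp9WT against 389.6 and 108 in untreated cells (-1.25 ± 0.35, adjusted p = 0.0262, limma), Thor, the 4E-BP gene, at 10.0 and 7.27 against 19.8 and 16.7, and sip2 at 30.4 and 56.8 against 85.1 and 138. Without rescaling 1 of the 3 remained, and the median of the list was 0.42 there against -0.01. The median of all genes without rescaling was 0.39. None of the 3 remained without untreated replicate 1, and 1 each without Rbp9WT replicate 1 and without Rbp9WT replicate 2. Among 25 detoxification genes 4 rose (16%, beside 10.7% of all genes) and 1 fell. GstD4, GstD5 (1.77 ± 0.44) and GstD2 (1.45 ± 0.46) rose with Ho, and GstE6 fell. GstD4 was the 1 call of these that remained without untreated replicate 1 and the 1 that remained without Rbp9WT replicate 2. As given above, GstD4 entered the test only through Rbp9WT and had to be higher. MtnE, 1 of 3 tested metallothionein genes, rose (1.96 ± 0.51), and lost its call without untreated replicate 1 or Rbp9WT replicate 1 (adjusted p up to 0.345). Of 24 apoptosis and DNA damage genes 4 rose (16.7%) and 2 fell (8.33%). p53 measured 49.3 and 40.8 in Rbp9WT against 14.9 and 15.4 in untreated cells (1.51 ± 0.28, adjusted p = 0.00243) and held with any 1 library left out. Buffy, Gadd45 and the cell death gene rpr rose (1.89, 1.34 and 0.88). Of the 4 rises, p53 alone remained without untreated replicate 1 and without Rbp9WT replicate 2, and 3 remained without Rbp9WT replicate 1. Neither fall remained without rescaling.

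Among the genes of the matrix, wound and signalling lists, Mmp1, upd3, trol, dlp, vn and put rose. Mmp1 (FBgn0035049, chromosome 2R, 24671294 to 24688184, minus strand), a matrix metalloproteinase gene of tissue remodelling and a JNK target, measured 105 and 34.6 in Rbp9WT against 10.8 and 4.09 in untreated cells (2.99 ± 0.30, adjusted p = 9.62e-06, limma). upd3, the gene of a JAK/STAT cytokine, measured 89.8 and 24.9 against 13.3 and 3.70 (2.57 ± 0.31, adjusted p = 5.22e-05). The perlecan gene trol measured 148 and 42.4 against 19.4 and 11.7 (2.32 ± 0.31), and the glypican gene dlp 32.5 and 10.5 against 2.55 and 2.14 (2.56 ± 0.47). vn, which encodes a neuregulin-like ligand of the EGF receptor, measured 38.5 and 9.29 against 5.76 and 2.72 (2.01 ± 0.34), and put, a type II receptor gene of the BMP and activin pathways, 62.3 and 40.6 against 25.6 and 13.4 (1.39 ± 0.26). All 6 calls held with any 1 library left out. In all 6 both groups were higher in replicate 1 than in replicate 2, and the groups did not overlap.

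As lists, these groups were mixed. Over all tested genes 10.7% rose and 4.96% fell, and the median change was 0.00, or 0.39 without rescaling. Of 22 matrix genes 6 rose (27.3%) and 2 fell (9.09%), with a median of 0.17, or 0.47 without rescaling. Of 43 genes of EGF receptor, Notch, BMP, hedgehog and wingless signalling 6 rose (14%) and 1 fell (2.33%), with a median of 0.36, or 0.71 without rescaling. Of 10 JAK/STAT genes 2 rose (median 0.29, or 0.72 without rescaling), and of 19 JNK and wound genes 3 rose (median -0.11, or 0.32 without rescaling). upd2 was the other JAK/STAT gene that rose (1.28 ± 0.37), and it did not pass without untreated replicate 1 or either Rbp9WT library (adjusted p up to 0.221, limma). Ddc, a wound-response enzyme gene of dopamine synthesis, and the relaxin-like Ilp8 rose by 2.19 and 1.93, and lost their calls without Rbp9WT replicate 1 (adjusted p up to 0.148 and 0.163), Ilp8 also without Rbp9WT replicate 2. Egfr rose (1.24 ± 0.35) and did not pass without untreated replicate 1 or Rbp9WT replicate 1 (adjusted p up to 0.451). Of the 6 matrix and 6 signalling rises, 3 and 2 remained without untreated replicate 1, and 4 and 2 without Rbp9WT replicate 1. Ilp8 also stands among 17 insulin, TOR and FOXO genes, where chico (1.31) rose and Thor fell. Neither call held without untreated replicate 1, Rbp9WT replicate 1 or Rbp9WT replicate 2. The median of that list was -0.18, or 0.23 without rescaling.

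The immune and antiviral lists differed in the share called higher, beside 10.7% of all genes. It was 6.67% for antiviral and small RNA genes and 5.56% for Toll and Imd pathway genes. For antimicrobial and immune-induced genes it was 25%. Dcr-2, the Dicer of the antiviral siRNA pathway, measured 42.3 and 25.9 in Rbp9WT against 5.17 and 5.64 in untreated cells (2.41 ± 0.32, adjusted p = 0.000124, limma). Traf6, an adaptor gene of the Toll and JNK pathways, measured 53 and 83 against 11.8 and 27.2 (1.82 ± 0.29, adjusted p = 0.000671). Both held with any 1 library left out, and each was the 1 riser of its list (15 antiviral and small RNA genes, 18 Toll and Imd pathway genes). vir-1, a gene induced by viral infection, fell (-1.13 ± 0.30), a call lost without rescaling, without untreated replicate 1 and without either Rbp9WT library. Of 16 tested antimicrobial and immune-induced genes (of 35 in the table) 4 rose (25%, beside 10.7% of all genes), with DptB at 7.24 and 8.49 against 1.68 and 0.584 (2.10 ± 0.49), PGRP-LF at 1.76 and CecA1 at 1.35. None of the 4 remained without untreated replicate 1 or without Rbp9WT replicate 2, and 1 without Rbp9WT replicate 1. Of 16 chitin and disc growth factor genes 3 rose (18.8%) and 1 fell (6.25%), led by the chitinase-family gene Cht9. Cht9 measured 19.6 and 6.06 in Rbp9WT against 0.0729 and 0 in untreated cells (3.54 ± 0.41, adjusted p = 3.66e-05, limma). Its call held with any 1 library left out. It entered the test only through Rbp9WT and had to be higher, so the share of the list is set in part by the filter. Of 18 ecdysone genes br rose (0.95 ± 0.32) and Ldh fell. br did not pass with edgeR, with TMM factors, without untreated replicate 1 or without either Rbp9WT library (adjusted p up to 0.556).

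RNA-processing factors, among which Rbp9 acts, gave 7 calls in 2 lists. Of 18 cleavage and polyadenylation factors 1 fell (5.56%, beside 4.96% of all genes), Cpsf6, a subunit of cleavage factor I, at 78.7 and 87.7 in Rbp9WT against 187 and 138 in untreated cells (-0.94 ± 0.28, adjusted p = 0.0327, limma). The median of the list was -0.24, and 0.18 without rescaling, where Cpsf6 did not pass. Over all genes the median without rescaling was 0.39. Of 34 hnRNP and splicing regulators 5 fell (14.7%, beside 4.96% of all genes) and 1 rose (2.94%, beside 10.7%), with a median of -0.07, and 0.36 without rescaling. Sxl, the sex-determination splicing factor gene, rose to 45.9 and 20.0 against 14.9 and 10.9 (1.19 ± 0.30). tra2 measured 18 and 16.8 against 36.3 and 34.6 (-0.99 ± 0.28). Cpsf6 and the 5 splicing regulators that fell lost their calls without untreated replicate 1, without either Rbp9WT library and without rescaling. Sxl lost its call without untreated replicate 1 or Rbp9WT replicate 1 (adjusted p up to 0.199).

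Rbp9WT was also compared directly with ElavWT and FneWT in the same fit. Those groups share the untreated libraries in any comparison with untreated cells, so only direct contrasts are given. The filter on low values used the Rbp9WT and untreated libraries, so a gene expressed in ElavWT or FneWT alone could not enter, and the split of higher and lower calls is set in part by that. Against ElavWT limma called 38 genes (0.43% of those tested), 32 higher and 6 lower in Rbp9WT, with 861 at an unadjusted p under 0.05. Rbp9 led with a difference of 5.22 ± 0.64 (adjusted p = 0.0243), at 538 and 59.6 rescaled CPM in Rbp9WT against 5.12 and 2.86 in ElavWT. That difference was 4.89 without ElavWT replicate 1 and 5.54 without ElavWT replicate 2, and passed in neither case. swi2 measured 16.1 and 12.1 against 4.07 and 0 (2.73 ± 0.48, adjusted p = 0.0243), and passed the filter on low values through Rbp9WT. mthl15, a receptor gene of the methuselah family, had 111 and 14 reads in Rbp9WT and 0 in both ElavWT and both untreated libraries, so it entered only through Rbp9WT and its call there is no support for a difference from ElavWT. CG1648 was lower, at 3.19 and 1.01 against 27.8 and 11.2 (-2.69 ± 0.42, adjusted p = 0.0141). Both contrasts use the same Rbp9WT libraries, so an overlap of their calls is no separate support. Of the 38, 30 were also called higher against untreated cells (beside 10.7% of all genes). nrv3 (1.44 ± 0.26, 148 and 92.1 against 54.5 and 33.1 in ElavWT) and GstD4 (2.03 ± 0.40, 18.2 and 15.6 against 2.68 and 4.17) were among them, and NLaz was lower than in ElavWT (-1.69 ± 0.36), though higher than in untreated cells. nrv3, GstD4 and NLaz are named here after their values were seen. Without the replicate block 0 genes were called against ElavWT, and the count was 12 without Rbp9WT replicate 1 and 7 without Rbp9WT replicate 2.

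Against FneWT limma called 0 genes (0% of those tested), with 437 at an unadjusted p under 0.05 and a smallest adjusted p of 0.150. edgeR called 1 gene and DESeq2 4. Rbp9 itself, at 5.6 and 3.15 rescaled CPM in FneWT, did not pass in that contrast either. The median size of the difference per gene was 0.23 against FneWT, 0.27 against ElavWT and 0.51 against untreated cells. A difference that misses the threshold does not show that Rbp9WT and FneWT were alike.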

How the data were processed

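RNA from S2R+ cells (2 ug of total RNA per library) was measured by 3′-end sequencing. The deposited values are CPM per gene for single libraries, mapped to dm6 per the submitters' processing notes. The sources used here name neither a counting tool nor its strand setting. Every CPM was a whole multiple of 1 read within 0.01 read, so read counts were recovered and used for depth and for edgeR and DESeq2. Intervals were not computed, and the floor of 3 reads covers counting error only.

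CPM were rescaled by median ratios over the 8 libraries of Rbp9WT, ElavWT, FneWT and untreated cells. log2(rescaled CPM + 1) was fitted in limma 3.58.1 (R 4.3.3) with group and replicate number as terms and trended, robust empirical Bayes (3 residual degrees of freedom), over 8836 genes averaging 1 CPM or more in the 4 libraries compared. The Benjamini-Hochberg method adjusted p-values over all of them, and calls are at an adjusted p under 0.05. The labels give replicate numbers but no shared day or culture. Same-numbered libraries deviated together from their group means in all 6 pairs of groups (r of 0.593 to 0.877), which is why the number was kept as a block. Alternatives were edgeR 4.0.16, DESeq2 1.42.0, other scalings, pseudocounts and filters, no block, and each library left out.

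Coordinates, overlaps and 3′ UTR lengths are from Ensembl release 115 (the dm6 assembly), in which 13684 genes matched and 93 did not. Genes were named by a rule. It took the 8 largest rises and 8 largest falls among called genes whose groups did not overlap. Among such genes averaging 50 CPM or more it took the 6 largest each way. It also took up to 3 per list and the 4 largest between proteins. Other members, cell markers and overlapping genes were named after their values were seen. The 37 gene lists, the members and the rule were chosen with earlier results of these data known. Some genes are not reported here.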

Additional observations from a re-analysis of the deposited data

How the results depend on the processing

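Without the replicate block that pairs the libraries, limma called 0 genes against untreated cells and 0 against ElavWT, and the change of Rbp9, 5.39, no longer passed (adjusted p = 0.19). Leaving out 1 library gave 379 to 3077 calls against untreated cells (340 to 1788 higher, 36 to 1289 lower), 7 to 41 against ElavWT and 0 to 8 against FneWT. All 1385 calls kept their sign in these 4 fits. Without rescaling 1585 genes were higher and 66 lower, and without rRNA-named genes in the totals 1528 and 70. elav turned from -0.31 to 0.11 and 0.0813 under these scalings. A pseudocount of 5 gave 904 calls (612 higher), no filter on low values 769 (132 lower), a mean of at least 5 CPM 611 higher, plain empirical Bayes 158 lower and edgeR 725 lower. Of limma's calls, 1367 were shared with edgeR and 1368 with DESeq2. Against ElavWT the count was 17 without rRNA-named genes, 20 and 18 with pseudocounts of 0.5 and 5, 4 without the filter, 14 at a mean of at least 5 CPM, 75 with DESeq2, 12 with plain empirical Bayes and 416 with only the libraries compared. Against FneWT it was 1 with a pseudocount of 0.5, without the filter or with edgeR, 4 with DESeq2 and 110 with only the libraries compared. For single genes and lists, 2668 values stayed on their side of the threshold or within 1.5 times, 436 lost and 2 gained a call, and 536 counts moved. The cause of these differences was not tested. The lowest depth, 5020094 reads in Rbp9WT replicate 2, limits genes near 1 CPM to a few reads.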

Other observations

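Chromosome 4, which is small and largely heterochromatic, held a high share of rises. Of its 82 tested genes 29 were called higher in Rbp9WT (35.4%, beside 10.7% of all genes) and 1 lower, and the median change was 0.69 (1.00 in replicate 1, 0.53 in replicate 2). On the other chromosome arms the share called higher lay between 9.31% and 12.1%. In 57 of the 82 genes the change was above 0 in both replicates (69.5%, against 37.0% of genes elsewhere). The glutamate receptor gene CG11155 measured 51.9 and 23.2 rescaled CPM in Rbp9WT against 2.11 and 1.36 in untreated cells (3.72 ± 0.31, adjusted p = 1.77e-06, limma). mGluR, the metabotropic glutamate receptor gene, measured 13.8 and 6.47 against 0.875 and 0.973 (2.45 ± 0.41). Ephrin, a guidance ligand gene, measured 216 and 164 against 58.4 and 52.2 (1.75 ± 0.27), and Cals, the calsyntenin gene, 261 and 269.5 against 77.4 and 101 (1.57 ± 0.27). The span of CG11155 overlaps that of CG32017, which was also called higher (2.47). Cals overlaps sv, so reads of these genes may not be separable. In CG11155, mGluR, Ephrin and Cals the levels of the groups did not overlap. Like Ekar, Kif3C and onecut, mGluR was under 1 rescaled CPM in both untreated libraries. Such genes entered the test only through Rbp9WT and had to be higher, so the share and median are set in part by the filter. With the filter raised to 5 CPM, 64 genes of the chromosome were tested, 21 rose, 1 fell and the median was 0.59.

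Genes of chromosome 4 have longer annotated 3′ UTRs (median 723.5 nt, against 330 nt elsewhere). Among genes with at most 500 nt the median change was 0.58 on chromosome 4 (27 genes) and -0.14 elsewhere (5181 genes), and among longer ones 0.89 (47 genes) and 0.20 (3232 genes). The number called higher was 12 without untreated replicate 1, 38 without untreated replicate 2, 13 without Rbp9WT replicate 1, 18 without Rbp9WT replicate 2 and 46 without rescaling. Set against ElavWT the median of these genes was 0.44 in Rbp9WT, and set against FneWT 0.13. The chromosome was singled out after its values were seen, and no cause was tested.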
